A study of Homo sapiens with 4 samples.

Results

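HSP90B1, CANX, LMAN1, SPCS3, DNAJC10 and PDIA2 encode proteins that fold or export other proteins in the endoplasmic reticulum (ER). They were taken as every feature of the array whose gene symbol, current or older, was one of these 6 names. This gave 12 features of 15154 and 6 of 4603 named genes, and 0 features matched by an older symbol alone. The 6 genes were chosen by hand, selected on results of the same 4 arrays, among them the mean log2 ratio. Those means are therefore given as a description. Each value is from RNA of a whole culture, in which fewer cells of a kind and less RNA per cell cannot be told apart.

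The RNA came from OCI-Ly10, an established human lymphoma line (diffuse large B-cell lymphoma, activated B-cell class). Cells were electroporated with 4 uM of a pool of small interfering RNAs (siRNA SMARTpool) against c-myc, the MYC transcript, and harvested after 6 h, 8 h or 24 h. Controls were electroporated in the same way, with 4 uM of a nonspecific siRNA against Renilla luciferase on 2 arrays (8 h and 24 h) and with no siRNA, in Solution T, on the other 2 (6 h and 24 h). Each of the 4 arrays compared 1 pair of cultures, with c-myc siRNA RNA in Cy5 and control RNA in Cy3, and with 0 dye swaps. A single cell line and a single siRNA pool were used, so off-target effects of the pool are part of every value. A value here is the log2 ratio of Cy5 to Cy3, in which negative means less transcript with c-myc siRNA. Neither the log base nor the direction is stated in the sources used here, and both were inferred, from the range of the values and the dye of each channel. A ratio carries no level, so the markers of B cells cannot be checked for presence; CD79A, CD79B, CD22, MS4A1 and PAX5 were measured, as 5 of 6 listed B-cell markers.

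Proteins bound for the cell surface or for secretion enter the ER through a translocon, where signal peptidase removes the signal peptide. They are then folded by chaperones of the Hsp70 and Hsp90 classes and by the lectin calnexin, receive disulfide bonds from protein disulfide isomerases, and leave in vesicles with the help of cargo receptors. Cells that secrete antibody expand this machinery through the unfolded protein response and its transcription factors XBP1 and ATF6. Lymphomas of the activated B-cell type resemble B cells on the way to that state.

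MYC, the target, was below 0 on each array, at -0.94 (8 h) and -0.35 (24 h) relative to control siRNA and -1.26 (6 h) and -1.03 (24 h) relative to no siRNA, with a mean of -0.89 ± 0.39 (SD, n = 4).

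CANX, LMAN1, SPCS3 and DNAJC10 were lower with c-myc siRNA on each of the 4 arrays, by between 0.33 and 0.57 on average on the log2 scale. HSP90B1 was lower on 3 arrays and higher on 1, and had the lowest mean of the 6, -0.65. PDIA2 had no constant direction. Of 47 values of single features, 40 were below 0, and 37 of 40 when PDIA2 is left aside, against 50.2% of all values in the table. Being below 0 on all 4 arrays was found for 4 of the 6 genes and for 23.3% of the 6798 rows of the table. In limma the same 4 genes were called lower at an adjusted p under 0.05, where 10.2% of all rows were called lower and 5.56% higher. The genes were chosen with this contrast known, so nothing is read from these shares. With 1 array left out, the calls depended on which one it was. Without the 8 h array 3 of the 6 were called (HSP90B1, LMAN1 and DNAJC10) and 441 rows in the whole table. Without any of the other 3 arrays 0 of the 6 were called, when the whole table had 4 (no 24 h array against control siRNA), 0 (no 6 h array) and 234 (no 24 h array against no siRNA). The calls given for other genes rest on the same 4 arrays.

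**Figure D1:**
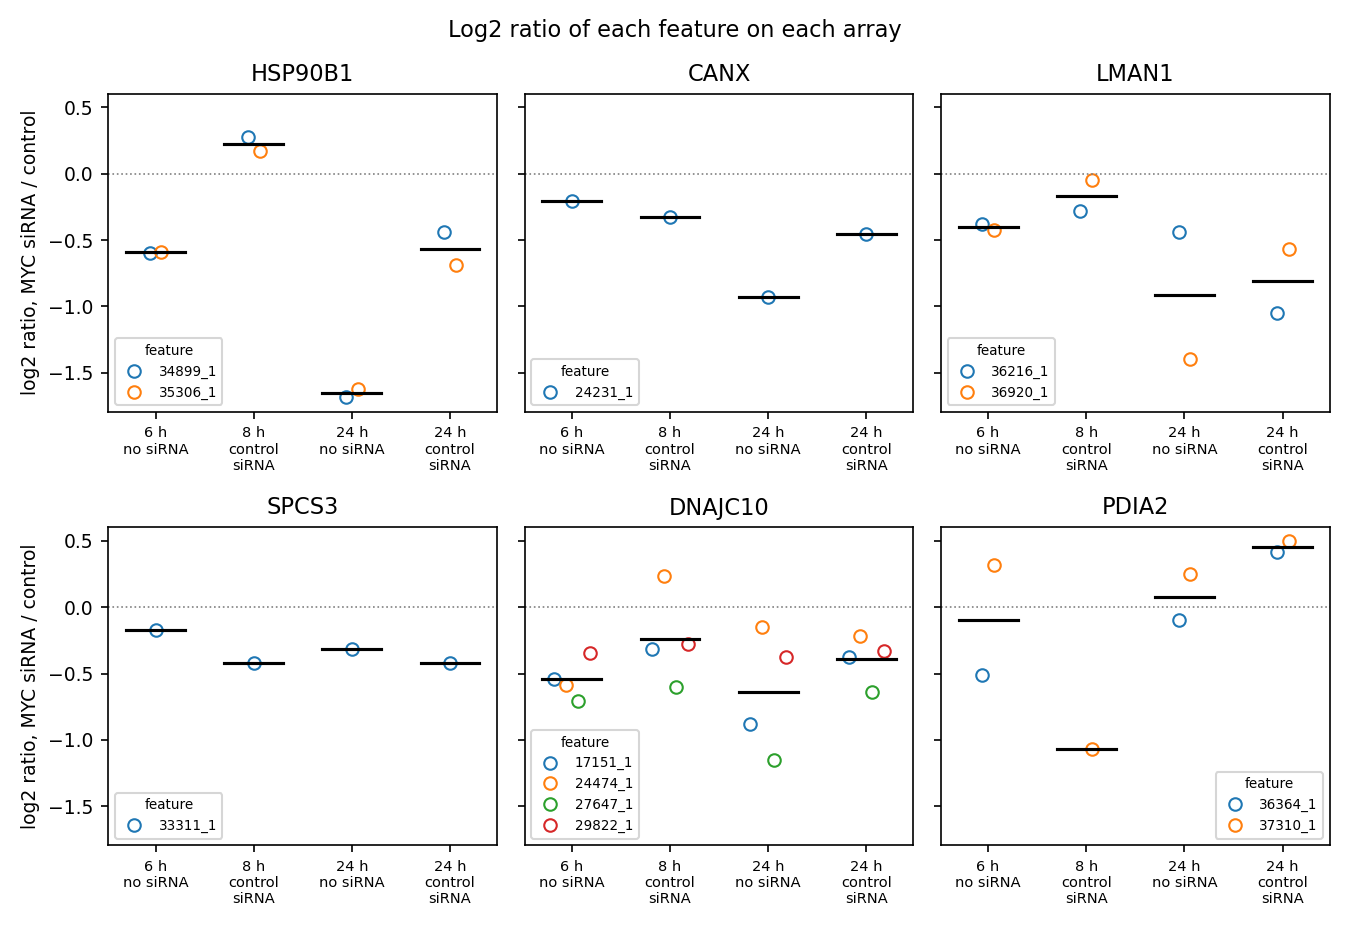
Log2 ratio of c-myc siRNA over control (vertical axis) for each of the 12 features (open circles) on each of the 4 arrays (horizontal axis), with the mean of the features of a gene as a black line. HSP90B1 runs from 0.23 to -1.66 with its features close together, CANX, LMAN1 and SPCS3 lie below 0 throughout, and PDIA2 changes sign.

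HSP90B1 encodes GRP94, the Hsp90 chaperone of the ER lumen, whose clients include integrins, Toll-like receptors and immunoglobulin chains. Its log2 ratio was 0.23 (8 h) and -0.56 (24 h) relative to control siRNA, with -0.59 (6 h) and -1.66 (24 h) relative to no siRNA. The 24 h array against no siRNA was the lowest, and the 8 h array was the one above 0. As shares of the control level these are 117%, 67.7%, 66.3% and 31.8%. The mean was -0.65 ± 0.77 (SD, n = 4), which moved to -0.94 when the 8 h array was left out and to -0.31 when the 24 h array relative to no siRNA was. The gene has 2 features. In the order used above, the first gave 0.28, -0.44, -0.60 and -1.69, and the second 0.18, -0.69, -0.59 and -1.63. They differed by 0.26 at most on 1 array, a gap smaller than that between any 2 arrays except the 6 h array and the 24 h array against control siRNA.

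CANX encodes calnexin, a membrane-bound lectin that holds newly made glycoproteins in the ER until they are folded. Its 1 feature gave -0.32 (8 h) and -0.45 (24 h) relative to control siRNA, with -0.21 (6 h) and -0.93 (24 h) relative to no siRNA. The mean was -0.48 ± 0.32 (SD, n = 4), or 71.8% of control, and the lowest array was again 24 h against no siRNA. CALR, its soluble paralog calreticulin, averaged -0.12 ± 0.16 (SD, n = 4) and did not pass the test (limma adjusted p = 0.372). CANX was below CALR on each of the 4 arrays.

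LMAN1 encodes a mannose-binding cargo receptor that cycles between the ER and the Golgi and, with its partner MCFD2, carries coagulation factors and other glycoproteins. Its mean over 2 features was -0.16 (8 h) and -0.81 (24 h) relative to control siRNA, with -0.40 (6 h) and -0.91 (24 h) relative to no siRNA. Both 24 h arrays lay below both early ones, and the mean was -0.57 ± 0.35 (SD, n = 4), or 67.3% of control. The features did not rank the 24 h arrays alike. The first was at -1.05 against control siRNA and -0.44 against no siRNA, while the second was at -0.57 and -1.39, so the 24 h values of LMAN1 rest on features that differ by up to 0.96. On the early arrays they were closer, at -0.28 and -0.05 (8 h) and -0.38 and -0.43 (6 h). MCFD2 averaged -0.04 ± 0.26 (SD, n = 4; limma adjusted p = 0.80).

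SPCS3 encodes a subunit of the signal peptidase complex. Its 1 feature gave -0.42 on both arrays against control siRNA, with -0.17 (6 h) and -0.32 (24 h) relative to no siRNA. The 4 values kept within a narrow span, with a mean of -0.33 ± 0.12 (SD, n = 4), or 79.5% of control. The catalytic subunit gene SEC11A averaged 0.09 ± 0.34 (SD, n = 4; limma adjusted p = 0.646), with values on both sides of 0. For SPCS1, SPCS2 and SEC11C, the remaining genes of the complex, no named feature was found, so SEC11A is the only comparison within it.

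DNAJC10 encodes ERdj5, a DnaJ cochaperone that reduces disulfide bonds of misfolded proteins before their degradation. Its mean over 4 features was -0.24 (8 h) and -0.39 (24 h) relative to control siRNA, with -0.54 (6 h) and -0.64 (24 h) relative to no siRNA. By this mean over features, both arrays against no siRNA lay below both against control siRNA. The mean over arrays was -0.45 ± 0.18 (SD, n = 4), or 73.1% of control. The features differed in size. One was the lowest on each array and averaged -0.77, and the others averaged -0.53, -0.33 and -0.18. The last of these was the one with a value above 0, 0.23 at 8 h. The one at -0.33 varied least, from -0.38 to -0.28.

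PDIA2 encodes a protein disulfide isomerase known mainly from the pancreas. Its mean was -1.07 (8 h) and 0.46 (24 h) relative to control siRNA, with -0.10 (6 h) and 0.08 (24 h) relative to no siRNA. The value at 8 h stands far below the others and comes from 1 of its 2 features, since the other has no value on that array. On the 6 h array the features had opposite signs, 0.32 and -0.51, as they had on the 24 h array against no siRNA, 0.25 and -0.10. The mean over the 4 arrays was -0.16 ± 0.65 (SD, n = 4), and it was 0.15 without the 8 h array. The broader isomerases PDIA3 (-0.12 ± 0.16) and PDIA4 (-0.10 ± 0.21; SD, n = 4 each) did not pass the test (limma adjusted p = 0.373 and 0.497).

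Genes of the ER are known to share promoter elements, so the 250 bases before the annotated transcript start were searched in RefSeq promoter windows of GRCh38.p14, which held all 6 genes. The motifs were the E-box CACGTG, which MYC binds with MAX, the ER stress element ERSE (CCAAT, any 9 bases, then CCACG), which NF-Y and ATF6 bind, ERSE-II (ATTGG, any 1 base, then CCACG) and the core TGACGTGG of the element bound by XBP1, each on both strands. The CCAAT of an ERSE is also counted where CCAAT is searched by itself. HSP90B1 and CANX are shown because they hold ERSE matches, and DNAJC10 because it holds the XBP1 core. Capitals mark the letters of E-box, ERSE and XBP1 core matches, while CCAAT outside an ERSE stays in lower case. They leave out the bases between the parts of an ERSE, and a match on the opposite strand appears as its reverse complement.

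HSP90B1, chr12:103930160-103930409, plus strand: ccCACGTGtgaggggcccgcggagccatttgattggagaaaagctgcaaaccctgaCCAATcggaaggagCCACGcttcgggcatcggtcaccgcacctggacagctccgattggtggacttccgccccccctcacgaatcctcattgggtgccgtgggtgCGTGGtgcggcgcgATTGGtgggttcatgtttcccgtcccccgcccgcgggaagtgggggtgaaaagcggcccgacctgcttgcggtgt

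CANX, chr5:179698679-179698928, plus strand: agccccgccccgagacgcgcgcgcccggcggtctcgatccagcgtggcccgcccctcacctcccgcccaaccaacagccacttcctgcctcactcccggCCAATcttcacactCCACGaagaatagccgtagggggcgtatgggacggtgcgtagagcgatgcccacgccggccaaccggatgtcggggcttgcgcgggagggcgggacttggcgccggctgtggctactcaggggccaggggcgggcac

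DNAJC10, chr2:182716007-182716256, plus strand: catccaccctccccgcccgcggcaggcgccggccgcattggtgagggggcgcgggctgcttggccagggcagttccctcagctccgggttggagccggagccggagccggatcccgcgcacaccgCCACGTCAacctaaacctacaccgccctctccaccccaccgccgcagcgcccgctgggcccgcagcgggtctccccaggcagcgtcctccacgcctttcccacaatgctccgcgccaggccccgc

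HSP90B1 held 2 ERSE matches, 1 on each strand, starting at -194 and -89 from the transcript start, and an E-box from -248 to -243. CANX held 1 ERSE match, starting at -151 in the window shown, and the same letters lie in 1 more of its 4 annotated windows. DNAJC10 held the XBP1 core from -125 to -118 on the opposite strand. PDIA2 held an E-box from -62 to -57, and LMAN1 and SPCS3 held CCAAT, as HSP90B1, CANX and DNAJC10 do, and 0 of the other motifs. An ERSE was found in 0.074% of 35116 promoter windows over the same 250 bases (26 windows), the XBP1 core in 0.612%, an E-box in 6.34% and CCAAT in 32.0%. ERSE matches were held by 9 of the 167 listed ER genes with a window, ALG12, CALR, CANX, CRELD2, ERO1B, HSP90B1, HSPA5, PDIA6 and XBP1. Of the same 167 genes, 15 held the XBP1 core (8.98%), 26 an E-box (15.6%) and 89 CCAAT (53.3%). These shares count genes with a match in any of their windows, where the shares above count windows. A match is a description of letters and not a measured binding site.

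**Figure D2:**
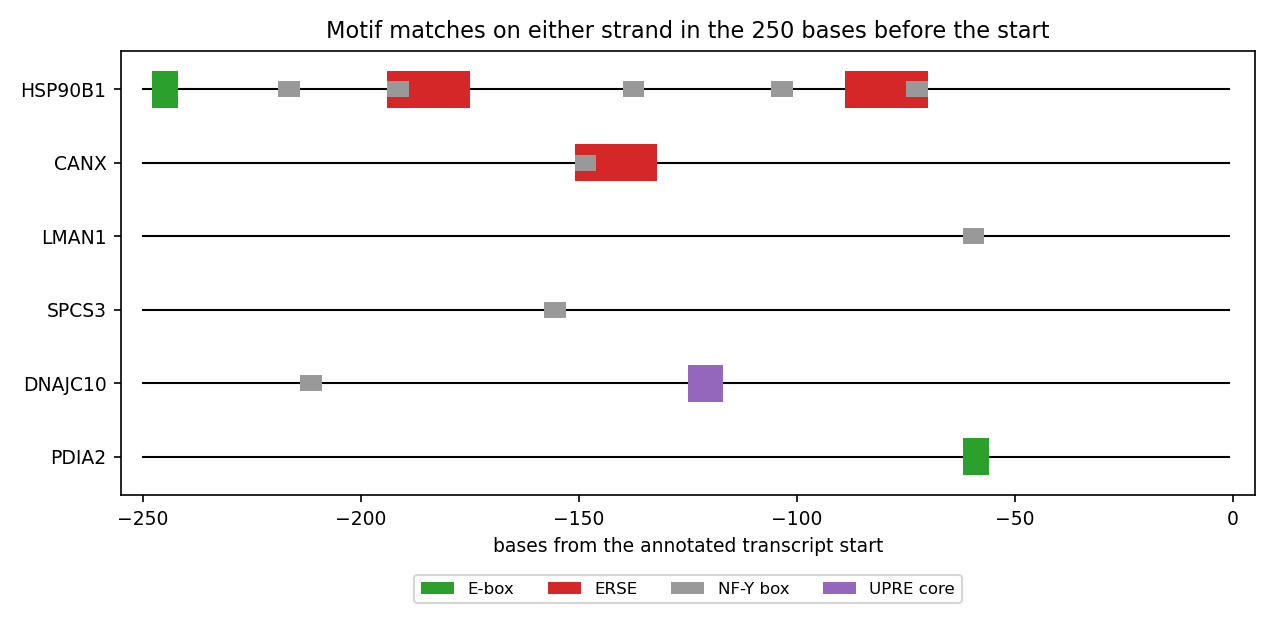
Matches of the E-box, ERSE, the XBP1 core (UPRE core) and the CCAAT box (NF-Y box) on either strand, as coloured bars, in the 250 bases before the annotated transcript start (horizontal axis, bases) of the 6 genes. HSP90B1 has 2 ERSE matches, CANX 1, and LMAN1 and SPCS3 a CCAAT box alone.

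The difference between the 24 h arrays and the early ones (6 h and 8 h) was fitted with the kind of control as a second term. LMAN1 and CANX were lower on both 24 h arrays than on both early ones, PDIA2 was higher, and HSP90B1, SPCS3 and DNAJC10 overlapped between times. Such a lack of overlap was found for 36.5% of all rows. For PDIA2 it holds for the mean of the features. The feature with a value on every array overlapped, at 0.32 (6 h) and 0.25 (24 h) against no siRNA. For HSP90B1 the difference was -0.93 (SE 0.19), from a mean of -0.18 early to -1.11 at 24 h, and it was -0.79 within the arrays against control siRNA and -1.06 within those against no siRNA. HSP90B1 was itself chosen with results of these arrays known, so its tests by time and by kind of control are no independent evidence. The difference by time ranked as the 8th lowest of 3954 named genes and did not pass (limma adjusted p = 0.053), while 0.118% of rows passed. HSP90B1 passed in limma with arrays centred on their median (adjusted p = 0.00434), the median of its features (0.00108) and complete features (0.0307). It did not pass with arrays scaled to 1 spread (-0.65, limma adjusted p = 0.497). Nor did it pass with robust eBayes (limma adjusted p = 0.0557) or over rows with at least 3 arrays (0.0543). Its difference stayed at -0.93 with median features, complete features, robust eBayes and rows with at least 3 arrays. Only the pooled errors and the other rows changed there, so these settings do not check its own values. The 24 h array against no siRNA had the widest spread of the 4, with an SD over features of 0.447 against 0.288 to 0.327 on the others, and the part of that spread in the low value of HSP90B1 was not tested beyond the scaling. LMAN1 differed by -0.58 (SE 0.18) and CANX by -0.43 (SE 0.20), and neither passed (limma adjusted p = 0.247 and 0.463). The CANX difference was -0.72 within the arrays against no siRNA and -0.13 within those against control siRNA. SPCS3 (-0.07, SE 0.18) and DNAJC10 (-0.12, SE 0.18) did not pass either (limma adjusted p = 0.943 and 0.887). PDIA2 had the 3rd highest difference of the named genes, 0.85, and may have been chosen for it, so no test is given. It was 0.18 within the arrays against no siRNA and 1.53 within those against control siRNA, which hold the 8 h value.

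The kind of control was compared across the same 4 arrays, with time as the other term. HSP90B1 and DNAJC10 were lower, and SPCS3 higher, on both arrays against no siRNA than on both against control siRNA, a separation that 34.6% of all rows showed. For HSP90B1 it was narrow, from -0.59 (6 h, no siRNA) to -0.56 (24 h, control siRNA). A feature of HSP90B1 overlapped, at -0.59 (6 h, no siRNA) and -0.69 (24 h, control siRNA). So did a feature of DNAJC10, at -0.15 (24 h, no siRNA) and -0.22 (24 h, control siRNA). HSP90B1 averaged -0.17 against control siRNA and -1.12 against no siRNA, a difference of 0.96 (SE 0.19; limma adjusted p = 0.0588), while 0.0883% of rows passed. It was 0.82 between the early arrays and 1.09 between the 24 h arrays. The early pair was 8 h against control siRNA and 6 h against no siRNA. Its difference therefore also holds the step between these times, which the time term does not remove. HSP90B1 passed in 4 of 6 alternatives in limma, with adjusted p from 0.000423 to 0.285. Its own difference changed only with centred (0.93) and scaled arrays (0.81). The other alternatives left it at 0.96 and changed only the pooled errors and the other rows, so they do not check its values. DNAJC10 differed by 0.28 (SE 0.18) and SPCS3 by -0.18 (SE 0.18), and neither passed (limma adjusted p = 0.699 and 0.861). CANX (0.18), LMAN1 (0.17) and PDIA2 (-0.30) did not pass (limma adjusted p = 0.865, 0.865 and 0.774). The LMAN1 value averages features that differed in opposite directions, by -0.26 and 0.60. The arrays of the 2 kinds of control carry experiment identifiers from separate ranges, so experiment and kind of control cannot be told apart. Of the 6 rows called for the kind of control, 0% had a lower log2 ratio on the arrays against control siRNA than on those against no siRNA. With arrays centred on their median, 34.8% of 89 did.

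**Figure D3:**
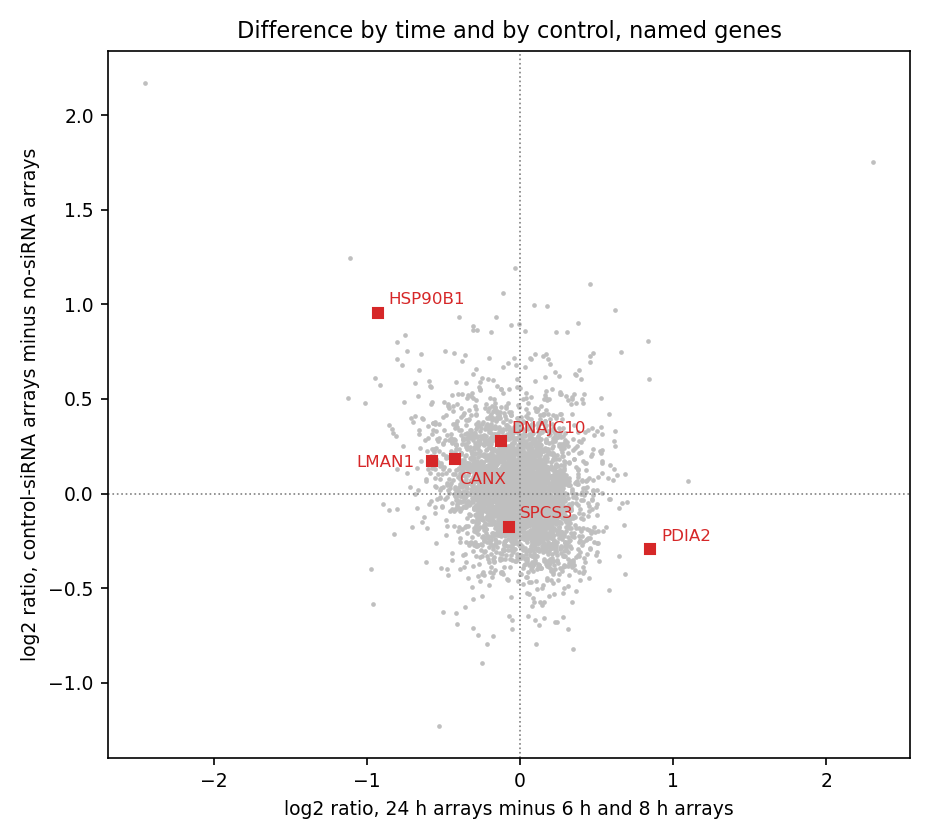
Difference in log2 ratio between the 24 h arrays and the 6 h and 8 h arrays (horizontal axis) and between the arrays against control siRNA and those against no siRNA (vertical axis), for 3954 named genes (grey points) and the 6 ER genes (red squares). HSP90B1 lies at -0.93 and 0.96 and PDIA2 at 0.85 and -0.30, away from the bulk, while SPCS3 and DNAJC10 lie within it and CANX and LMAN1 towards its left edge.

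The members can be set beside the rest of the ER machinery, in lists by role drawn up with earlier results known. Of 187 listed genes 67 had a value on all 4 arrays, 6 of them the members. Of the other 61, 4 fell, 1 rose and the rest did not pass, with a median log2 ratio of -0.09. The share that fell, 6.56%, compares with 10.2% of all rows, whose median was -0.003. The genes that fell were SRP72, of the signal recognition particle that brings ribosomes to the ER (-0.61 ± 0.39), SEC24B, of the vesicle coat that binds cargo (-0.42 ± 0.19), STX5, a membrane-fusion protein of the Golgi (-0.37 ± 0.14), and EDEM3, which trims mannose from misfolded glycoproteins (-0.30 ± 0.08; SD, n = 4 each). COPE, of the coat of vesicles returning to the ER, rose (0.36 ± 0.19; SD, n = 4). Limma adjusted p lay between 0.0252 (SRP72) and 0.0422 (EDEM3) for these 5 genes. SRP72 had values of -0.22 and -0.63 against control siRNA and -0.44 and -1.15 against no siRNA, early array first, with the lowest on the same array as HSP90B1, CANX and LMAN1.

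By role, the ER chaperones of the Hsp70, Hsp90 and DnaJ classes had 4 measured genes beside HSP90B1 and DNAJC10, of which 0 passed, with a median of -0.09. HSPA5, the Hsp70 of the ER known as BiP, had 3 values, -0.09 and -0.12 against control siRNA and -0.34 at 6 h against no siRNA, and was not tested for lack of the fourth. Beside PDIA2, 8 disulfide isomerases and oxidation enzymes had a median of -0.11, and beside CANX, 9 lectin and N-glycosylation genes one of -0.01, with 0 passing in either list. Of 12 other signal peptidase and translocon genes SRP72 passed (median -0.10), and of 11 other cargo and vesicle genes SEC24B, STX5 and COPE did (median -0.08). Among 17 genes of the unfolded protein response and ER-associated degradation EDEM3 passed and 16 did not (median -0.09). XBP1 averaged -0.09 ± 0.16 (SD, n = 4; limma adjusted p = 0.527). The stress sensors ATF6 (-0.10) and EIF2AK3 (-0.17) and the stress-induced factors ATF4 (-0.26) and DDIT3 (-0.09) did not pass and were singled out after their values were seen. None of these lists had a gene that passed by time or by kind of control, where 8 and 6 of 6798 rows did (687 and 685 at an unadjusted p under 0.05 in limma). For the 61 other genes the median difference was -0.02 by time and -0.03 by control.

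Of 7 measured relatives of ER chaperones and disulfide isomerases in the cytosol or the mitochondrion 4 fell and 3 did not pass, with a median of -0.38. The share that fell was 57.1%, where 10.2% of all rows were called lower. The Hsp70 genes in this list are relatives of HSPA5, which is not a member. HSP90AA1 and HSP90AB1, the cytosolic Hsp90 chaperones, averaged -0.48 ± 0.24 and -0.38 ± 0.20, HSPA9, the mitochondrial Hsp70, -0.79 ± 0.61, and TXN2, the mitochondrial thioredoxin, -0.50 ± 0.39 (SD, n = 4 each; limma adjusted p from 0.0241 to 0.0411). TRAP1, the mitochondrial Hsp90, was at -0.24 ± 0.17 on average (limma adjusted p = 0.106). HSP90B1 thus had a lower mean than its 3 measured Hsp90 relatives and a larger SD, 0.77. On the 8 h array HSP90AA1 was at -0.36 and HSP90AB1 at -0.35, where HSP90B1 was at 0.23. Of the cargo that the ER of a B cell handles, 6 immunoglobulin and J chain genes had a median of -0.07, and IGLL1, of the surrogate light chain, fell (-0.31 ± 0.16, SD, n = 4; limma adjusted p = 0.0487). It closely resembles the lambda constant-region genes, so its assignment is uncertain. IGHM, the mu heavy chain, was at -0.10 and JCHAIN at 0.05. Among the 5 B-cell markers CD79A, a subunit of the B-cell receptor, rose (0.41 ± 0.27, SD, n = 4, limma adjusted p = 0.039). The others did not pass, 2 of the 5 averaged below 0, and the median was 0.10. The 5 plasma-cell markers had a median of 0.05 with 0 passing. CD72, a B-cell inhibitory receptor, rose as well (0.41 ± 0.32, SD, n = 4; limma adjusted p = 0.0482). Of other cell types, 4 T-cell markers had a median of 0.16 with 0 of 4 below 0 and 0 passing, and monocyte markers had no gene with a value on all 4 arrays. Their part in the results was not tested.

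**Figure D4:**
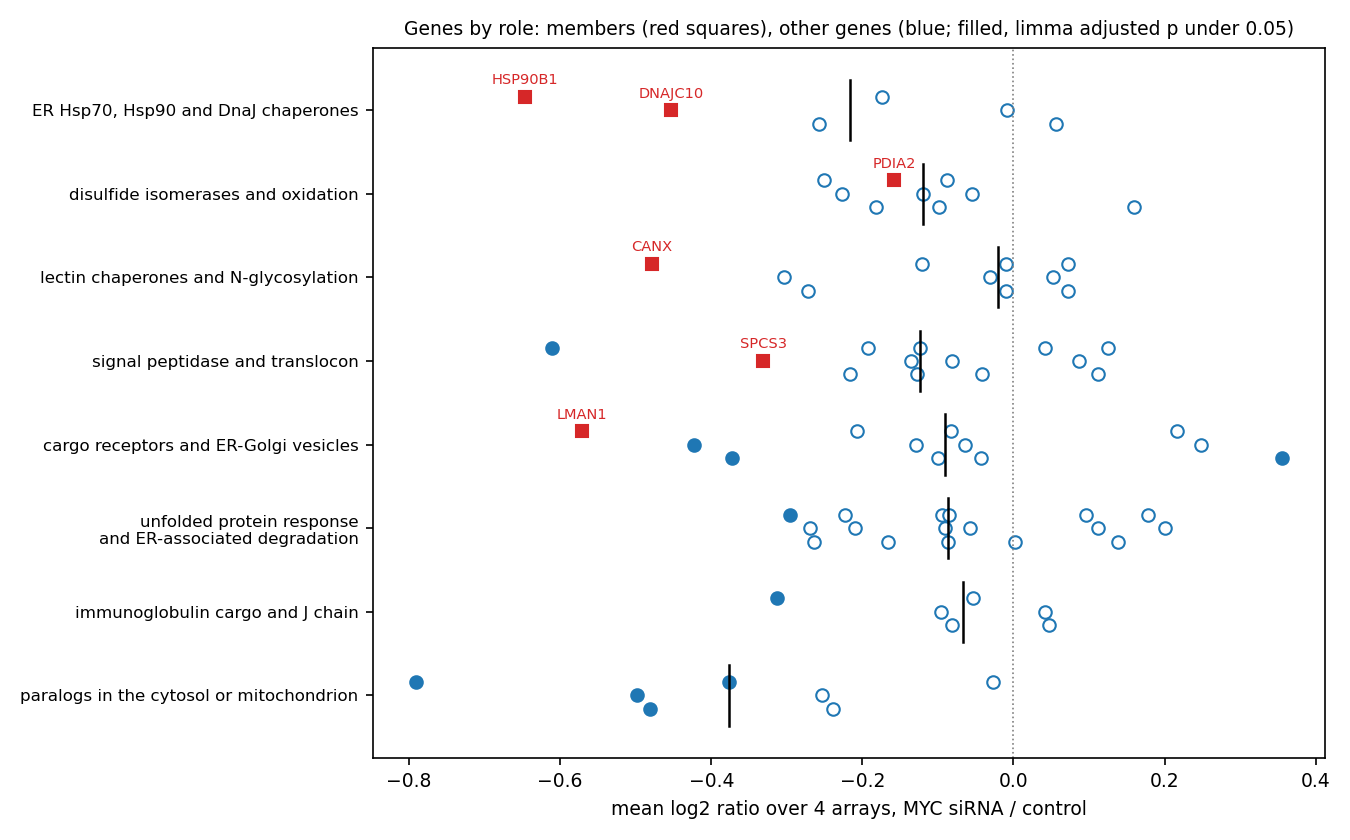
Mean log2 ratio over the 4 arrays (horizontal axis) of the measured genes of 8 lists (rows), with the 6 members as red squares, other genes as blue circles, filled where limma's adjusted p was under 0.05, and the median of each list as a black line. The medians of the ER lists lie between -0.22 and -0.02, and that of the paralogs in the cytosol or mitochondrion at -0.38. These medians include the members, which were chosen with their means known. Without the members those of the ER lists lie between -0.11 and -0.01.

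The genes that hold an ERSE match differed in their ratios. Of 6 carriers with a value on all 4 arrays, CANX was at -0.48 and HSP90B1 at -0.65, while CALR (-0.12), XBP1 (-0.09) and CRELD2 (-0.01) were nearer to 0 and ZNF17 was at 0.11. On the 24 h array against no siRNA HSP90B1 was at -1.66 and CANX at -0.93, against -0.20 for CALR, -0.13 for XBP1 and 0.26 for CRELD2. Among named genes with a promoter window, 12.5% of 384 with an E-box in the 250 bases were called lower, against 9.67% of 2855 without one, with median log2 ratios of -0.07 and -0.007. HSP90B1 and PDIA2 are the members among those with an E-box in these bases. CANX, counted as without one, held an E-box when the 50 bases after the start were searched as well.

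The gene nearest to HSP90B1 in its values on the 4 arrays, by root mean square difference over 3953 other named genes, was HSPA9 (0.22), followed by the helicase gene DHX15 (0.24). HSPA9 had -0.19 and -0.71 against control siRNA and -0.62 and -1.64 against no siRNA, early array first, and so shared the low 24 h value but not the value above 0 at 8 h. The nearest to LMAN1 were RPP30 (0.06), a subunit of RNase P, and SDAD1 (0.06), a factor of ribosome assembly. CANX lay nearest to BUD31 and PDPK1 (0.05 each), SPCS3 to PHACTR1 (0.04) and CCDC86 (0.05), and DNAJC10 to RAB12 (0.06) and H6PD (0.08), a dehydrogenase of the ER lumen. The nearest to PDIA2 were TIE1 and IL1RN (0.24 each), about as far from it as DHX15 from HSP90B1. Among the members themselves, CANX and LMAN1 were the closest pair (0.22) and HSP90B1 and PDIA2 the farthest (1.22). With 4 arrays, such nearness describes these arrays.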

How the data were processed

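The deposited values are the authors' processed log2 ratios of 2 channels, 1 per feature and array, for 15154 features. For background correction and normalization, the method is not given in the sources used here, and signal over background is unknown. Features were named from the platform annotation, updated by Entrez ID through RefSeq (GRCh38.p14, 10124 features). Features of 1 gene were averaged on each array, and 6798 rows with a value on all 4 arrays were kept, 3954 of them named genes.

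The mean over arrays was fitted with limma 3.58.1 in R 4.3.3 (lmFit, eBayes), and time and kind of control as 2 terms of a second model with 1 residual degree of freedom and 17.5 prior ones, so its errors rest mostly on the spread pooled over rows. Benjamini-Hochberg adjustment ran over all rows of each comparison, with a threshold of 0.05. The code was tested on simulated data. The number of arrays limits the precision, with a median standard error of 0.0951 for the mean. Nothing in the labels shows that the arrays come from independent experiments. No array repeats another in both time and kind of control. The p-values of the mean thus rest on array-to-array spread that includes differences by time and by kind of control. That spread may also be partly technical.

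The members, the role lists and the tests were chosen with earlier results of these data known. Besides the members and MYC, the genes named were set by rule: listed genes that passed (up to 4 per list), fixed relatives, and the 2 nearest genes per member. Outside that rule, ATF6, EIF2AK3, ATF4, DDIT3, CRELD2, ZNF17, IGHM and JCHAIN were given values after these were seen, and other genes were named as holders of a motif or as markers. Alternatives were centring, scaling, single, complete or median features, rows with at least 3 arrays, robust eBayes, terms for time and control, and leaving out each array.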

Additional observations from a re-analysis of the deposited data

Results flagged for a closer look

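As the mean of its features, PDIA2 was below 0 on both early arrays and above 0 on both 24 h arrays, a difference of 0.85 on the log2 scale between the times. Neither feature shows this pattern by itself. Their signs were opposite at 6 h (0.32 and -0.51) and at 24 h against no siRNA (0.25 and -0.10). The gene may have been chosen for this pattern, so the difference was not tested as a finding. At 8 h it rests on 1 feature with a value of -1.07, and within the arrays against no siRNA the difference was 0.18.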

How the results depend on the processing

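The number of rows called for c-myc siRNA, 1073, was 1980 with time and control as terms and 1971 over single features, and 0 to 441 with 1 array left out (0 without the 6 h array, where 2179 had an unadjusted p under 0.05). By time, 8 rows were called, against 61 with centred arrays, 0 with scaled arrays, 74 over single features, 26 over complete features, 98 with the median of the features and 5 with robust eBayes (limma with scaled arrays gave 567 before adjustment, at p under 0.05). By kind of control, 6 were called, against 89, 0, 57, 37 and 162 in the first 5 of these and 36 over rows with at least 3 arrays (668 unadjusted with scaled arrays). CANX, LMAN1, SPCS3 and DNAJC10 were called lower for c-myc siRNA in each alternative that kept all 4 arrays and gave 1 value per gene, and HSP90B1 was too with time and control as terms. The genes were chosen with this contrast known, so this describes the settings and is no support for the calls. For these 5 genes the mean kept its direction with any 1 array left out, and PDIA2 ran from -0.36 to 0.15. With 1 array left out, the fit of time and control has no residual degrees of freedom, so it gives values and no test.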
